A study of Mus musculus with 7 samples.

Results

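The 48 genes described here belong to hepatic stellate cells, to the extracellular matrix and to the enzymes that remodel it. They were chosen by gene symbol, in 8 roles that run from genes of the quiescent stellate cell to the ligands of transforming growth factor beta (TGF-β), and are 48 of the 56691 genes counted. Of these, 47 were found under their own symbol and Ctgf under its newer symbol Ccn2. All 48 were among the 13683 genes with enough counts to be tested. Timp1, Mmp13 and Adamts4 reached that level in 0 of 4 control mice, so they were tested only because of their counts after lipopolysaccharide. Myl9 reached it in 4 of 4 control mice and 0 of 3 others, so it was tested only because of its control counts. Acta2, Tagln, Tnc, Mmp2 and Tgfb2 also needed their control counts to be tested. Of the other genes named below, Mmp7, Mmp8, Plaur, Itga2, Itgam and some neutrophil markers were likewise tested through the LPS group, and Fbln2, Upk3b, Lama2 and Clec4g through the control group.

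RNA was sequenced from whole liver of 4 control mice and 3 mice given lipopolysaccharide (LPS), the bacterial endotoxin used to model septic liver injury. All were male C57BL/6J mice, bought at 8 weeks of age and housed for 2 weeks. LPS was injected intraperitoneally at 10 mg/kg and the liver was taken 24 h later. The label of the other group says only that it was a control. Libraries were made from poly(A) RNA by a dUTP method that keeps the strand. The comparison bears on the state of the matrix-producing cells of the liver at that time after endotoxin.

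Total counts were 14991022, 15096573, 15721944 and 18584140 in control mice 1 to 4, and 20500391, 17095607 and 17821331 in LPS mice 1 to 3. Levels are given as CPM, the counts divided by the library size in edgeR's usual unit, after scaling by trimmed mean of M-values (TMM), with mean ± SD over 4 control or 3 LPS mice. At this depth 3 counts, the limit that a count of 0 allows, were worth 0.138 to 0.212 CPM, which covers counting error only. Mitochondrial transcripts took 23.7%, 14.6%, 7.48% and 8.96% of the counts of control mice 1 to 4 and 6.45%, 3.83% and 3.94% in the LPS mice. Control mouse 1 thus stood apart, and the share was below every control in each LPS mouse. LPS mice 2 and 3 were close to each other, with an SD of their log2 ratio of 0.118 over 1901 well-counted genes, against 0.299 to 0.548 in the other 8 pairs within a group. Counting alone gives 0.0557 for that pair. Whether they came from separate animals or from 1 pool cannot be told apart by this, and they were used as labelled, as separate mice. With the 2 libraries summed, 13 members were higher and 8 lower after LPS, beside 1348 and 1195 of 14228 genes tested. The part of these differences in the results below was not tested.

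The tissue label was checked with Alb, the gene of serum albumin and a product of hepatocytes. Its level was 46978 ± 11470 CPM in control and 24665 ± 25.9 CPM in LPS livers, so hepatocyte RNA was abundant in each group. In the quiescent state stellate cells lie between hepatocytes and the sinusoid wall and store vitamin A as retinyl esters. When liver is injured over a long time they turn into contractile myofibroblasts that lay down fibrillar collagens, a change that TGF-β promotes. Matrix is cut by metalloproteinases, which tissue inhibitors of metalloproteinases (TIMPs) block, and is stiffened by lysyl oxidases.

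LPS livers differed from controls by edgeR's quasi-likelihood test, with Benjamini-Hochberg adjustment over all genes tested, in 24 of the 48 members. An adjusted p below 0.05 was reached by 13 members that were higher after LPS, beside 13.3% of all genes tested. It was reached by 11 members that were lower, beside 13.0% of all genes. With a change over 2-fold as well, 11 members were higher, beside 7.81% of all genes, and 9 were lower, beside 7.31%. The members were picked with earlier results of these data known, so the excess over those shares is a description. The median log2 fold change of the members was -0.10, and that of all genes tested was -0.01. Without LPS mouse 2, the count of lower members was 7 in place of 11. In the same fit 1146 of 14130 genes tested were lower, in place of 1773 of 13683. Among members that passed, 4 of 8 quiescent stellate cell genes were lower, 2 of 3 cross-linking enzymes and 4 of 5 proteases were higher, and collagens, other matrix proteins and TIMPs included members in each direction. Of the 4 higher proteases, Mmp13 and Adamts4 were tested only through their LPS counts, which favours a higher call. Without LPS mouse 2, only 1 quiescent stellate cell gene passed. A difference between roles was not tested. For every role and list below, the shares of all genes tested to set beside its counts are 13.3% higher and 13.0% lower.

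**Figure D1:**
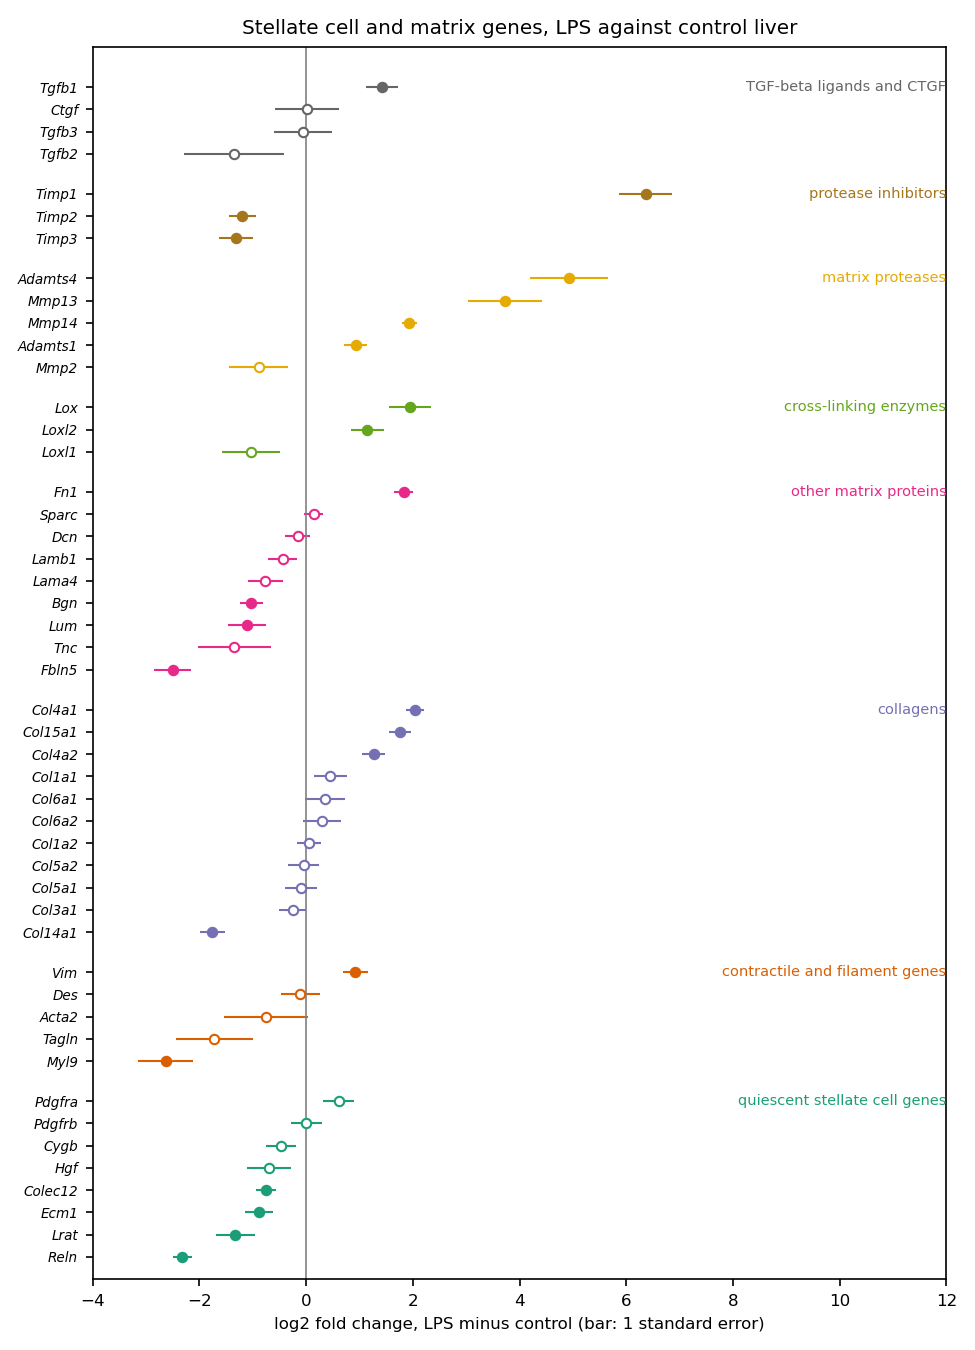
Log2 fold change of each of the 48 members, LPS minus control, with 1 standard error as a bar, grouped by role. Filled points passed the edgeR test at an adjusted p below 0.05 and open points did not. Timp1 lies farthest to the right at 6.36 and Myl9 farthest to the left at -2.63.

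Of the 8 genes of quiescent stellate cells, 4 were lower in LPS livers and 0 were higher, and without LPS mouse 2 the count of lower genes was 1. Reln, which codes for the secreted glycoprotein reelin, was at 39.2, 39.8, 29.1 and 41.3 CPM in control mice 1 to 4 and at 6.82, 7.54 and 8.03 CPM in LPS mice 1 to 3. All LPS values lay far below all controls, and control mouse 3 was the lowest control. Reln had a log2 fold change of -2.32 with a standard error (SE) of 0.18 (edgeR adjusted p = 1.04e-06). Lrat, the enzyme that makes retinyl esters for storage, was at 27.4, 10.4, 9.72 and 26.3 CPM in controls and at 5.95, 6.89 and 9.28 CPM after LPS. The controls fell into a high and a low pair, and the highest LPS value was just under the lowest control. Lrat fell by 1.33 on the log2 scale (SE 0.37, edgeR adjusted p = 0.0183). That call was lost without control mouse 4 (log2 fold change -1.11, edgeR adjusted p = 0.0524), without LPS mouse 1 (-1.19, adjusted p = 0.0670), without LPS mouse 2 (-1.28, adjusted p = 0.0676) and with the replicate number as a block (-0.96, adjusted p = 0.0823). Over all alternatives the edgeR or DESeq2 adjusted p of Lrat lay between 4.09e-08 and 0.0823.

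Colec12, a scavenger receptor of the collectin family, was at 43.6, 62.7, 68.7 and 46.5 CPM in controls and 37.2, 29.3 and 32.1 CPM after LPS. Its groups did not overlap, and its log2 fold change was -0.75 (SE 0.18, edgeR adjusted p = 0.00920). Without LPS mouse 2 its adjusted p was 0.0583 with a change of -0.67, with LPS mice 2 and 3 summed it was 0.0523 with a change of -0.70, and over all alternatives it was 0.000345 to 0.0583. Ecm1, which codes for a secreted matrix protein, was at 112, 93.9, 48.2 and 76.4 CPM in controls and 60.0, 39.4 and 35.2 CPM after LPS. LPS mouse 1 lay above control mouse 3, so the groups overlapped. Ecm1 fell by 0.88 on the log2 scale (SE 0.26, edgeR adjusted p = 0.0274). The Ecm1 call was lost without control mouse 1 (-0.70, edgeR adjusted p = 0.0584), control mouse 2 (-0.82, adjusted p = 0.0742), LPS mouse 2 (-0.79, adjusted p = 0.113) or LPS mouse 3 (-0.73, adjusted p = 0.130). Ecm1 also lost its call with LPS mice 2 and 3 summed (-0.75, edgeR adjusted p = 0.121), with 1.38e-05 to 0.130 over all alternatives.

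The other 4 genes of this role did not pass the test and their groups overlapped. Hgf, the hepatocyte growth factor, was at 3.27 ± 1.45 CPM in control and 2.01 ± 0.58 CPM in LPS livers. Cygb, the stellate cell globin, was at 6.57 ± 1.63 and 4.73 ± 0.96 CPM. Of the platelet-derived growth factor (PDGF) receptors, Pdgfra was at 3.94 ± 1.21 CPM in control and 6.00 ± 0.74 CPM in LPS livers. Pdgfrb was at 14.2, 6.44, 6.17 and 6.77 CPM in controls and 7.19, 9.15 and 8.90 CPM after LPS. Control mouse 1 held the highest Pdgfrb value of all 7 mice, and the other 3 controls lay below every LPS mouse. The summed level of the 8 genes was 253, 227, 171 and 213 CPM in controls and 131, 103 and 107 CPM after LPS. In bulk liver, fewer stellate cells and less RNA of these genes per cell cannot be told apart, and the part of other cells was not tested.

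Contractile and filament genes of stellate cells and myofibroblasts were low in CPM, apart from Vim. Myl9, a regulatory myosin light chain, was at 3.33, 2.46, 1.65 and 2.66 CPM in controls and 0.323, 0.580 and 0.311 CPM after LPS, from 27 to 55 counts per control library and 5 to 9 counts per LPS library. Each LPS value was below each control. The log2 fold change of Myl9 was -2.63 (SE 0.52, edgeR adjusted p = 0.00233). Vim, the intermediate filament vimentin of mesenchymal cells and leukocytes, was at 28.3, 25.2, 16.2 and 14.95 CPM in controls and 50.7, 34.2 and 34.9 CPM after LPS. Vim was above every control in each LPS mouse and rose by 0.92 on the log2 scale (SE 0.23, edgeR adjusted p = 0.0112). LPS mouse 1 was the highest for Vim, and without it the change was 0.71 with an adjusted p of 0.0567, within 3.08e-06 to 0.0567 over all alternatives.

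Acta2, the smooth muscle actin that marks activated stellate cells, was at 1.27, 1.01, 1.16 and 0.581 CPM in controls and 1.38, 0.258 and 0.0623 CPM after LPS. These values came from 18, 16, 19 and 12 counts in controls and 30, 4 and 1 counts in LPS mice 1 to 3. LPS mouse 1 was the highest of all 7 mice and the other 2 LPS mice were the lowest. For Acta2 the log2 fold change was -0.75 (SE 0.78, edgeR adjusted p = 0.530), and without LPS mouse 1 it was -2.59 with an adjusted p of 0.0604, within 0.0604 to 0.875 over all alternatives. Tagln, the actin-binding protein transgelin, had 34, 18, 12 and 27 counts in controls and 19, 3 and 2 counts after LPS, with LPS mouse 1 again above the other LPS mice and inside the control range. Its log2 fold change was -1.72 (SE 0.72, edgeR adjusted p = 0.101), and without LPS mouse 1 it was -3.07 with an adjusted p of 0.0235, within 0.0235 to 0.291 over all alternatives. Des, the muscle filament desmin found in rodent stellate cells, was at 3.75, 2.52, 1.89 and 3.73 CPM in controls and 2.67, 2.06 and 3.55 CPM after LPS. The Des groups overlapped throughout, with a log2 fold change of -0.11 (SE 0.37, edgeR adjusted p = 0.866).

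**Figure D2:**
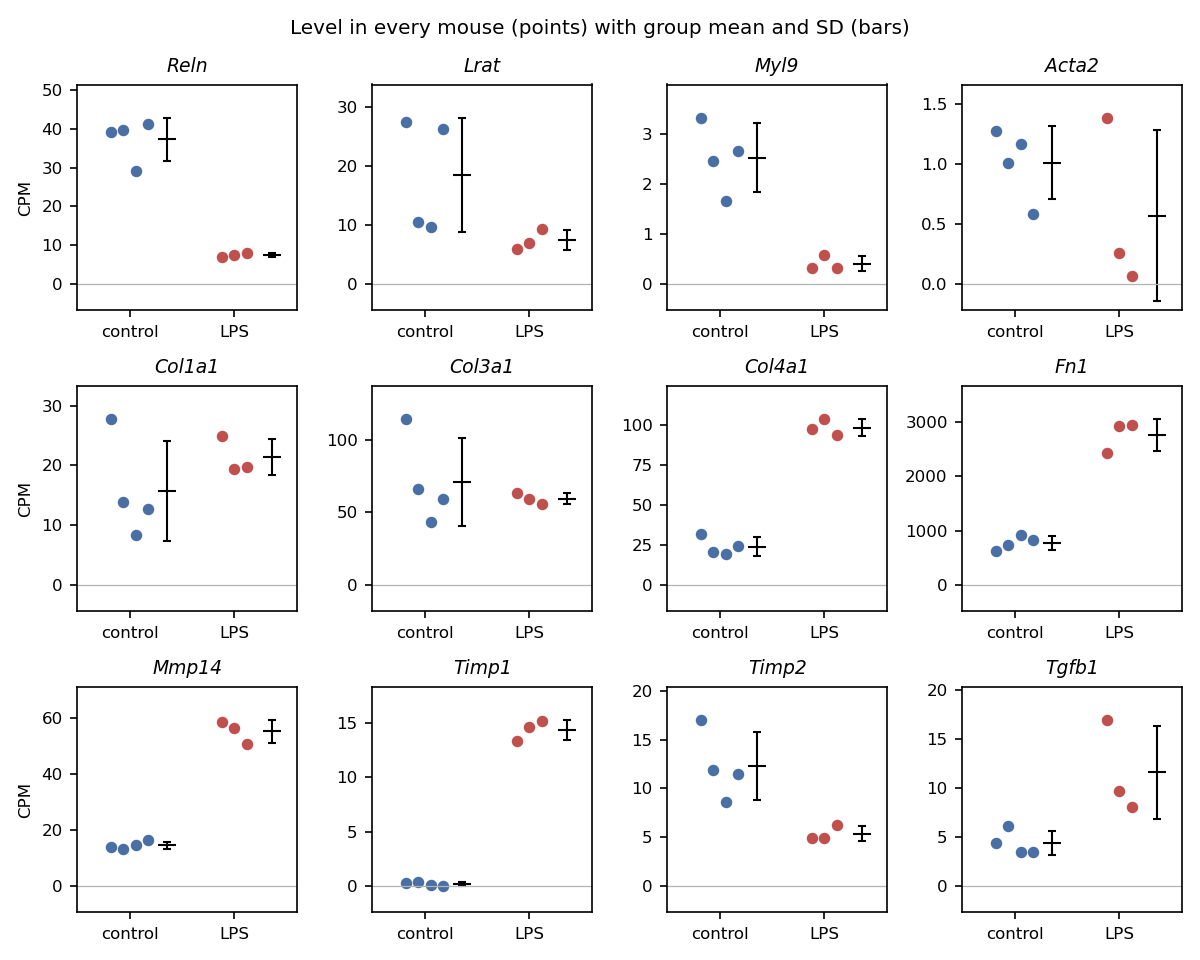
CPM of 12 members in every mouse, with control mice in blue, LPS mice in red and the group mean ± SD as a black bar beside the points. Reln, Myl9 and Timp2 were lower in all 3 LPS mice, Col4a1, Fn1, Mmp14, Timp1 and Tgfb1 were higher in all 3, and the groups overlapped for Acta2, Col1a1 and Col3a1.

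A list of 17 other stellate cell markers had 7 genes lower and 2 higher after LPS, beside 13.0% and 13.3% of all genes, with a median log2 fold change of -0.999. Of the 7, Ngfr and Tcf21 were tested only through their control counts, which favours a lower call. Angptl6, an angiopoietin-like secreted protein, fell from 6.70 ± 2.61 to 1.41 ± 0.40 CPM (log2 fold change -2.24, edgeR adjusted p = 0.000794). Pth1r, the receptor of parathyroid hormone, fell from 7.80 ± 2.45 to 2.01 ± 0.45 CPM (-1.95, edgeR adjusted p = 0.000916). Vipr1, a receptor of vasoactive intestinal peptide, fell from 19.0 ± 4.82 to 9.41 ± 0.88 CPM (-1.01, edgeR adjusted p = 0.00492). The 2 higher genes were Steap4, a metalloreductase, and Rgs5, a regulator of G-protein signalling found in pericytes. Rgs5 rose from 22.1 ± 6.27 to 45.6 ± 14.7 CPM (log2 fold change 1.05, edgeR adjusted p = 0.00631). Steap4 rose from 66.2 ± 19.5 to 745 ± 257 CPM (3.49, edgeR adjusted p = 1.45e-06) and had the highest CPM of the list after LPS but not in controls, with 16.5% of its summed CPM in controls and 70.0% after LPS. The summed level of the list, 452, 366, 373 and 435 CPM in controls and 749, 1196 and 1181 CPM in LPS mice, thus followed Steap4 and not most of its genes. Which cells of the whole liver held the Steap4 and Rgs5 RNA was not tested.

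Matrix genes are shared with portal fibroblasts, mesothelium and vascular smooth muscle. Markers of these cells were also lower where they passed, which for smooth muscle was 1 gene. Of 13 portal fibroblast and mesothelial markers 9 were tested, 4 were lower and 0 were higher, beside 13.0% and 13.3% of all genes. Of the 4, Fbln2 and Upk3b were tested only through their control counts, which favours a lower call. The summed level of the list was 47.8, 27.9, 12.2 and 20.2 CPM in controls and 11.3, 5.93 and 9.71 CPM after LPS. Every LPS mouse was below every control. Fbln2, a fibulin of elastic tissue, fell from 1.46 ± 0.69 to 0.118 ± 0.12 CPM (log2 fold change -3.46, edgeR adjusted p = 0.00749), and without LPS mouse 1 the change was -4.38. Upk3b, a mesothelial uroplakin, fell from 4.43 ± 2.80 to 0.697 ± 0.48 CPM (-2.61, edgeR adjusted p = 0.00823), and without LPS mouse 1 the change was -3.28. Eln, the gene of elastin, fell from 3.53 ± 2.32 to 0.895 ± 0.23 CPM (-1.95, edgeR adjusted p = 0.0165). The Eln call was lost without control mouse 1 (-1.42, edgeR adjusted p = 0.0514), LPS mouse 2 (-1.77, adjusted p = 0.0683) or LPS mouse 3 (-1.97, adjusted p = 0.0550). Eln also lost its call with LPS mice 2 and 3 summed (-1.88, edgeR adjusted p = 0.0530), with 0.000620 to 0.0683 over all alternatives. The most abundant gene of that list, Dpt, coding for dermatopontin, was at 7.08 ± 3.68 CPM in control and 2.59 ± 1.81 CPM in LPS livers (-1.44, edgeR adjusted p = 0.0483). The Dpt call was lost without control mouse 1 (-1.08, edgeR adjusted p = 0.126), control mouse 2 (-1.43, adjusted p = 0.0989), control mouse 4 (-1.55, adjusted p = 0.0610), LPS mouse 1 (-1.30, adjusted p = 0.131) or LPS mouse 2 (-1.09, adjusted p = 0.167). Dpt also lost its call without genes over 1% of counts in the library size (-1.47, edgeR adjusted p = 0.0518), with at least 10 counts in every mouse (-1.47, adjusted p = 0.0503) and with the replicate number as a block (-1.59, adjusted p = 0.0806), with 0.000149 to 0.167 over all alternatives. Without LPS mouse 3 the Dpt change was -2.12.

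Of 7 smooth muscle markers 4 were tested, and 3 of these did not pass. Tpm2, the gene of beta-tropomyosin, was lower, from 8.01 ± 0.43 to 1.40 ± 0.39 CPM (log2 fold change -2.50, edgeR adjusted p = 3.29e-05). Mylk, the myosin light chain kinase and the most abundant of these markers, was at 61.4 ± 14.6 and 45.6 ± 7.32 CPM and did not pass. Cnn1, a calponin that defines differentiated smooth muscle, had 0 counts in all 7 mice. The smooth muscle list summed to 96.4, 70.9, 63.3 and 64.1 CPM in controls and 59.9, 44.1 and 46.3 CPM after LPS. The part of these other cells in the lower levels of Myl9 and of the matrix genes was not tested.

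The 11 collagen genes did not move as a group: 3 were higher, 1 was lower and 7 did not pass. Fibrillar collagen I is built from the chains of Col1a1 and Col1a2. Col1a1 was at 27.8, 13.9, 8.31 and 12.7 CPM in controls and 24.8, 19.5 and 19.8 CPM after LPS. Control mouse 1 was the highest of all mice and the other 3 controls lay below every LPS mouse. The log2 fold change of Col1a1 was 0.45 (SE 0.31, edgeR adjusted p = 0.322), and without control mouse 1 it was 0.87 with an adjusted p of 0.00963. Over the alternatives its edgeR or DESeq2 adjusted p ran from 0.00963 to 0.555. Col1a2 was at 31.3, 22.0, 14.3 and 20.8 CPM in controls and 25.1, 22.5 and 21.3 CPM after LPS, and the LPS values lay inside the control range. Its log2 fold change was 0.06 (SE 0.22, edgeR adjusted p = 0.882). Col3a1, the chain of fibrillar collagen III, was at 115, 66.1, 43.7 and 59.4 CPM in controls and 63.3, 59.3 and 55.7 CPM after LPS. Control mouse 1 was again the highest, and the log2 fold change of Col3a1 was -0.26 (SE 0.26, edgeR adjusted p = 0.513).

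The chains of basement membrane collagen IV, Col4a1 and Col4a2, were higher after LPS. Col4a1 was at 31.9, 20.5, 19.3 and 24.1 CPM in controls and 97.4, 104 and 94.1 CPM after LPS. The LPS mice were close together and all were far above the controls, with a log2 fold change of 2.04 (SE 0.17, edgeR adjusted p = 3.00e-06). Col4a2 was at 19.0, 10.8, 9.23 and 14.8 CPM in controls and 29.4, 34.0 and 33.5 CPM after LPS. Its groups did not overlap either, and its log2 fold change was 1.26 (SE 0.22, edgeR adjusted p = 0.000966). Within each mouse the count ratio of Col4a1 to Col4a2 was 1.68, 1.9, 2.09 and 1.64 in controls and 3.31, 3.06 and 2.81 after LPS. That ratio does not depend on the scaling between libraries, and each LPS mouse lay above each control, so the rise of Col4a1 was larger than that of Col4a2. Whether the ratio differed between groups by a test of its own was not tested.

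Col15a1, a collagen of basement membrane zones, was at 4.32, 4.23, 3.42 and 3.53 CPM in controls and 11.1, 15.2 and 13.1 CPM after LPS. All LPS mice were above all controls, with a log2 fold change of 1.76 (SE 0.21, edgeR adjusted p = 5.77e-05). Col14a1, a collagen that binds to fibril surfaces, was the lower one, at 51.9, 27.0, 37.8 and 45.6 CPM in controls and 15.2, 11.0 and 9.65 CPM after LPS. All LPS values were below all controls, and the log2 fold change was -1.76 (SE 0.24, edgeR adjusted p = 0.000140). Of the collagen V and VI chains, Col5a1 was at 7.98 ± 3.73 and 7.41 ± 0.28 CPM and Col5a2 at 4.44 ± 1.08 and 4.27 ± 0.93 CPM. Col6a1 was at 6.70 ± 4.12 and 8.51 ± 1.68 CPM and Col6a2 at 5.03 ± 2.32 and 6.16 ± 1.498 CPM. These 4 genes did not pass and their groups overlapped.

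Set per kilobase of exon, with lengths that are approximate for these counts, the order of collagen levels changed. In controls Col3a1 led with 7.23 CPM per kb, before Col14a1 with 5.78 and Col4a1 with 3.21. After LPS Col4a1 led with 13.2 CPM per kb, before Col3a1 with 6.05 and Col4a2 with 4.88.

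Enzymes that modify, fold or trim collagen chains were listed apart from the members. Of 20 such genes 18 were tested, and 6 were higher and 0 lower, beside 13.3% and 13.0% of all genes. The median log2 fold change of the list was 0.45. Colgalt1, which adds galactose to collagen, rose from 29.6 ± 8.83 to 75.0 ± 6.04 CPM (log2 fold change 1.34, edgeR adjusted p = 0.000565). P3h1, a prolyl 3-hydroxylase, rose from 10.0 ± 1.82 to 22.8 ± 4.93 CPM (1.19, edgeR adjusted p = 0.000921). P4hb, the protein disulfide isomerase that is also a subunit of prolyl 4-hydroxylase and the most abundant of the list, rose from 1084 ± 209 to 1999 ± 407 CPM (0.88, edgeR adjusted p = 0.00543). P4hb works in the folding of many secreted proteins and is no marker of collagen production.

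Of 12 basement membrane components other than collagen IV, 1 was higher and 2 were lower, shares close to the 13.3% and 13.0% of all genes tested. Lamb3, a laminin beta chain, was higher, at 1.27 ± 0.47 CPM in control and 3.27 ± 0.41 CPM in LPS livers (log2 fold change 1.35, edgeR adjusted p = 0.0309). The Lamb3 call was lost without control mouse 2 (1.10, edgeR adjusted p = 0.0610), control mouse 4 (1.42, adjusted p = 0.0507), LPS mouse 2 (1.35, adjusted p = 0.0873) or LPS mouse 3 (1.26, adjusted p = 0.113). Lamb3 also lost its call with total counts (1.23, edgeR adjusted p = 0.0503), with the replicate number as a block (1.502, adjusted p = 0.0549) and with LPS mice 2 and 3 summed (1.32, adjusted p = 0.0839), with 0.00765 to 0.113 over all alternatives. Of the laminin alpha chains, Lama3 fell from 7.81 ± 3.18 to 1.71 ± 0.47 CPM (-2.19, edgeR adjusted p = 0.000939). Lama2 fell from 2.22 ± 0.36 to 0.603 ± 0.51 CPM (-1.88, edgeR adjusted p = 0.0286). The Lama2 call was lost without control mouse 4 (-1.83, edgeR adjusted p = 0.0560), LPS mouse 1 (-1.60, adjusted p = 0.0914) or LPS mouse 2 (-1.53, adjusted p = 0.110), with 0.00406 to 0.110 over all alternatives. Without LPS mouse 3 the Lama2 change was -2.77. Col18a1, the source of endostatin and the most abundant of the list, was at 392 ± 50.9 and 316 ± 36.7 CPM and did not pass.

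Among the 9 other matrix proteins, Fn1 was higher and Fbln5, Lum and Bgn were lower. Fn1, the gene of fibronectin, which hepatocytes also secrete into plasma, was at 627, 735, 925 and 819 CPM in controls and 2421, 2930 and 2938 CPM after LPS. Every LPS mouse was above every control, and the log2 fold change was 1.83 (SE 0.18, edgeR adjusted p = 8.31e-06). Together the members took 0.159% to 0.181% of the counts of control libraries and 0.335% to 0.355% of those of LPS libraries. Without Fn1 the shares were 0.107%, 0.0893%, 0.0629% and 0.0900% in controls and 0.0990%, 0.0733% and 0.0706% after LPS, which overlapped, so Fn1 carried the difference in the members' share.

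Fbln5, a fibulin needed for elastic fibres, was at 8.92, 5.30, 4.16 and 7.31 CPM in controls and 1.15, 1.16 and 1.06 CPM after LPS. The LPS mice were nearly equal and all below the controls, with a log2 fold change of -2.51 (SE 0.35, edgeR adjusted p = 0.000205). Bgn, the proteoglycan biglycan, was at 96.9, 71.2, 44.9 and 67.2 CPM in controls and 35.9, 33.3 and 34.1 CPM after LPS. Its groups did not overlap, and its log2 fold change was -1.02 (SE 0.21, edgeR adjusted p = 0.00368). Lum, the related proteoglycan lumican, was at 13.9, 9.78, 4.28 and 10.6 CPM in controls and 5.67, 3.61 and 4.05 CPM after LPS. LPS mouse 1 was above control mouse 3, and the log2 fold change was -1.11 (SE 0.35, edgeR adjusted p = 0.0329). The Lum call was lost without control mouse 1, 2 or 4 (log2 fold changes of -0.89, -1.12 and -1.06, edgeR adjusted p = 0.0800, 0.0710 and 0.0702) and without LPS mouse 2 or 3 (-0.98 and -1.04, adjusted p = 0.123 and 0.111). Lum also lost its call with LPS mice 2 and 3 summed (-1.02, edgeR adjusted p = 0.110), with 0.000581 to 0.123 over all alternatives.

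The remaining 5 matrix genes did not pass. Dcn, the proteoglycan decorin, was at 158 ± 52.3 CPM in control and 142 ± 23.6 CPM in LPS livers. Sparc, which codes for a collagen-binding matricellular protein, was at 70.6 ± 15.3 and 77.8 ± 7.9999 CPM. Lamb1 and Lama4, chains of laminins, were at 9.03 ± 2.50 and 4.15 ± 0.62 CPM in controls and at 6.63 ± 1.75 and 2.44 ± 0.83 CPM after LPS. Lama4 was lower in each LPS mouse than in each control, with a log2 fold change of -0.77 (SE 0.33, edgeR adjusted p = 0.110). Tnc, the gene of tenascin C, was at 10 to 22 counts per control library and 3 to 11 counts per LPS library, which overlapped.

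Of the 3 lysyl oxidases, which join collagen and elastin chains, 2 were higher after LPS. Lox was at 1.27, 2.02, 0.672 and 1.21 CPM in controls and 5.71, 3.80 and 5.48 CPM after LPS. All LPS mice were above all controls, with a log2 fold change of 1.95 (SE 0.39, edgeR adjusted p = 0.00267). Loxl2 was at 2.83, 2.59, 1.89 and 4.21 CPM in controls and 7.79, 5.60 and 5.79 CPM after LPS. Its groups did not overlap, and its log2 fold change was 1.14 (SE 0.31, edgeR adjusted p = 0.0162). The Loxl2 call was lost without control mouse 2 (1.08, edgeR adjusted p = 0.0502) and without LPS mouse 1 (0.98, adjusted p = 0.0708), with 0.00352 to 0.0708 over all alternatives. Loxl1 was at 6.16, 2.71, 0.917 and 2.61 CPM in controls and 1.66, 1.16 and 1.68 CPM after LPS. Control mouse 3 was the lowest of all 7 mice, and the other 3 controls lay above every LPS mouse. The log2 fold change of Loxl1 was -1.03 (SE 0.54, edgeR adjusted p = 0.189), and without control mouse 3 it was -1.34 with an adjusted p of 0.0406, within 0.0406 to 0.549 over all alternatives. Without control mouse 1, the highest control, it was -0.47.

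Of the 5 matrix proteases, 4 were higher and Mmp2 did not pass. Of the 4, Mmp13 and Adamts4 were tested only through their LPS counts. Mmp14, a membrane-bound collagenase that also activates the product of Mmp2, was at 13.9, 13.2, 14.6 and 16.3 CPM in controls and 58.7, 56.6 and 50.8 CPM after LPS. Both groups were tight and far apart, with a log2 fold change of 1.93 (SE 0.14, edgeR adjusted p = 6.81e-07). Mmp2, the gelatinase of stellate cells and fibroblasts, was at 2.19, 1.01, 1.53 and 0.774 CPM in controls and 0.922, 0.451 and 0.809 CPM after LPS. The Mmp2 groups overlapped, with a log2 fold change of -0.89 (SE 0.56, edgeR adjusted p = 0.272).

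Mmp13, the main interstitial collagenase of rodents, had 4, 5, 1 and 4 counts in controls and 17, 70 and 55 counts in LPS mice 1 to 3. All LPS mice were above the controls, and LPS mouse 1 was the lowest of the LPS mice. Mmp13 had a log2 fold change of 3.73 (SE 0.70, edgeR adjusted p = 0.00172). Adamts1, a secreted protease that cuts proteoglycans, was at 9.13, 8.20, 6.29 and 8.56 CPM in controls and 20.001, 12.2 and 13.8 CPM after LPS. Its groups did not overlap, and its log2 fold change was 0.93 (SE 0.22, edgeR adjusted p = 0.00665). Adamts4, the related aggrecanase, had 1, 2, 1 and 0 counts in controls and 33, 43 and 31 counts after LPS. Summed by group and set against library size, 107 counts against 4 gave a ratio of 33.6, with a 95% counting interval of 12.8 to 126. That interval leaves out the spread between mice. The edgeR log2 fold change of Adamts4 was 4.93 (SE 0.74, edgeR adjusted p = 0.000332).

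The TIMPs moved in opposite directions. Timp1 had 4, 6, 1 and 0 counts in controls and 289, 227 and 243 counts after LPS, or 0.283, 0.379, 0.0611 and 0 CPM against 13.3, 14.6 and 15.1 CPM. Controls were near 0 in each mouse and the LPS mice were close to each other. The log2 fold change of Timp1, the largest among the members, was 6.36 (SE 0.49, edgeR adjusted p = 1.28e-06), and it was 7.06 without control mouse 2, which held the most control counts. Timp2 was at 17.1, 11.9, 8.62 and 11.5 CPM in controls and 4.93, 4.90 and 6.23 CPM after LPS. All LPS mice were below all controls, with a log2 fold change of -1.20 (SE 0.25, edgeR adjusted p = 0.00349). Timp3, whose product is held in the matrix, was at 5.38, 4.23, 4.71 and 3.63 CPM in controls and 2.03, 1.61 and 1.74 CPM after LPS. Its groups did not overlap, and its log2 fold change was -1.31 (SE 0.31, edgeR adjusted p = 0.00817).

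Among the inhibitors, Timp1 went from the lowest level to the highest, and Timp2 stayed above Timp3. Per kilobase of exon, controls held 3.15 CPM of Timp2, 0.551 of Timp3 and 0.204 of Timp1, and LPS livers held 16.2 CPM of Timp1, 1.37 of Timp2 and 0.220 of Timp3. The summed CPM of the 3 genes was 22.7, 16.5, 13.4 and 15.1 in controls and 20.3, 21.1 and 23.1 after LPS, and these sums overlapped. The summed CPM of the 5 proteases was 25.6, 22.8, 22.5 and 25.8 in controls and 81.9, 76.5 and 70.7 after LPS, with Mmp14 as the most abundant gene in each group.

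Other metalloproteinases and genes of the plasminogen system were read from a list of 26, of which 23 were tested. Of these, 9 were higher and 1 was lower, beside 13.3% and 13.0% of all genes. Of the 9, Mmp7, Mmp8, Mmp9, Adam8 and Plaur were tested only through their LPS counts, which favours a higher call. The median log2 fold change of the list was 0.65. Mmp8, the neutrophil collagenase, had 1 count in the 4 controls together and 186, 115 and 111 counts after LPS. Its edgeR log2 fold change was 8.42 (edgeR adjusted p = 5.81e-07). Counts of Mmp8 summed by group gave a ratio of 518 with a 95% counting interval of 92.5 to 20500, which leaves out the spread between mice. Mmp7, an epithelial metalloproteinase, rose from 0.258 ± 0.39 to 11.0 ± 4.15 CPM (log2 fold change 5.44, edgeR adjusted p = 0.000121). Of its 16 control counts 13 were in control mouse 2, without which the log2 fold change was 7.34. Plaur, the urokinase receptor, rose from 0.223 ± 0.080 to 3.22 ± 0.83 CPM (3.81, edgeR adjusted p = 0.000131). Mmp15, a membrane-bound metalloproteinase, fell from 28.0 ± 3.20 to 5.70 ± 0.61 CPM (-2.29, edgeR adjusted p = 1.05e-06). Plg, the plasminogen gene of hepatocytes and the most abundant of the list, was at 1532 ± 543 and 2397 ± 433 CPM and did not pass (0.65, edgeR adjusted p = 0.0860). Plg passed with DESeq2 (0.65, adjusted p = 0.0409), with no filter (0.65, edgeR adjusted p = 0.00652), with the replicate number as a block (0.81, adjusted p = 0.0186) and without control mouse 3 (0.84, adjusted p = 0.0232), with 0.00652 to 0.245 over all alternatives. Mmp10 had 0 counts in all mice.

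Leukocytes also express Timp1, Mmp8, Plaur and Vim, so their markers were read in the same livers. Of 10 neutrophil markers 6 were tested and 6 were higher, but S100a8, Retnlg, Cxcr2 and Ngp were tested only through their LPS counts, which favours a higher call. The summed neutrophil level was 5.17, 4.54, 2.02 and 2.85 CPM in controls and 206, 149 and 151 CPM after LPS. S100a9, with the highest CPM of the list after LPS but not in controls, rose from 1.17 ± 0.65 to 82.9 ± 17.2 CPM (log2 fold change 6.18, edgeR adjusted p = 2.78e-08). Its partner S100a8 rose from 0.487 ± 0.27 to 46.0 ± 8.83 CPM (6.53, edgeR adjusted p = 2.30e-08). Retnlg had 1 count in the controls together and 506 after LPS, and Ngp had 0 in every control and 313, 232 and 274 after LPS. Of the other defining markers, Ly6g had 0 counts in every control and 7, 0 and 1 after LPS, and Mpo had 0 counts in controls and 0, 1 and 0 after LPS. Elane had 0, 8, 6 and 0 counts in controls and 3, 2 and 6 after LPS. Camp had 1, 0, 2 and 0 counts in controls and 7, 1 and 3 after LPS. These 4 markers were not tested.

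Of 10 Kupffer cell and macrophage markers, 4 were higher and 1 was lower, beside 13.3% and 13.0% of all genes, and 5 did not pass. Itgam, an integrin of infiltrating myeloid cells, rose from 0.526 ± 0.70 to 41.6 ± 10.1 CPM (log2 fold change 6.39, edgeR adjusted p = 2.28e-06). Of its 32 control counts 22 were in control mouse 1, without which the log2 fold change was 7.73. Lyz2, a lysozyme with the highest CPM of the list after LPS but not in controls, rose from 31.5 ± 9.21 to 75.9 ± 7.75 CPM (1.27, edgeR adjusted p = 0.000757). Cd68 rose from 2.62 ± 0.76 to 12.3 ± 7.61 CPM (2.23, edgeR adjusted p = 0.000815), and without LPS mouse 1 its log2 fold change was 1.59. Clec4f, a lectin of resident Kupffer cells, fell from 54.4 ± 11.8 to 12.3 ± 10.3 CPM (-2.13, edgeR adjusted p = 0.00216), and without LPS mouse 1 its log2 fold change was -3.09. The macrophage list summed to 137, 196, 183 and 120 CPM in controls and 341, 154 and 158 CPM after LPS. LPS mouse 1 was the highest there, as for Vim, Adamts1 and Tgfb1, and LPS mice 2 and 3 lay inside the control range. The part of leukocytes in the levels of these members was not tested.

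**Figure D3:**
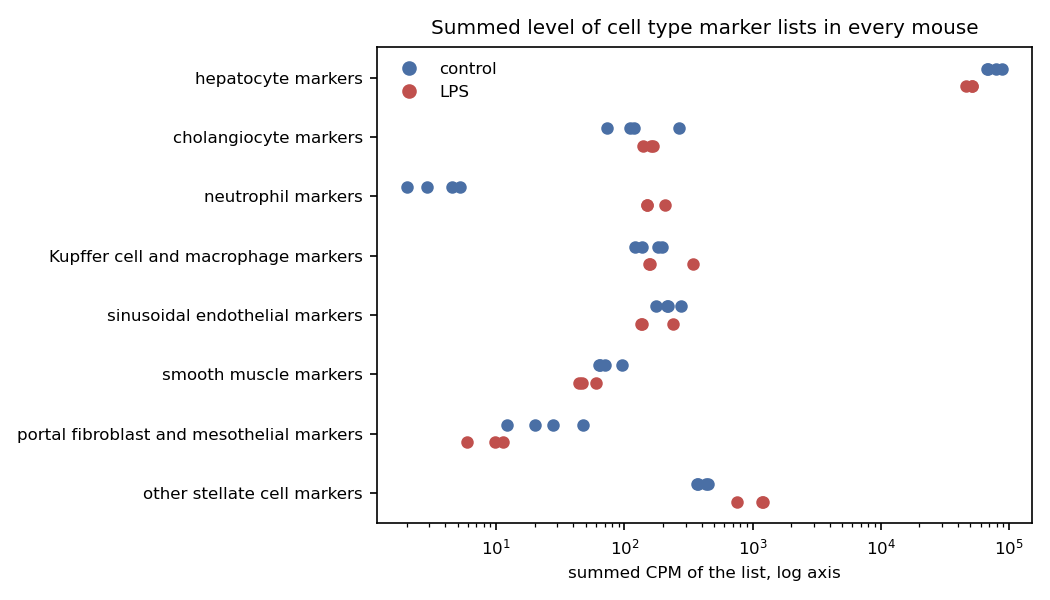
Summed CPM of 8 lists of cell type markers in every mouse, on a log axis, with control mice in blue and LPS mice in red. Neutrophil markers summed to 2.02 to 5.17 CPM in controls and 149 to 206 CPM after LPS, while portal fibroblast and mesothelial markers were lower in all 3 LPS mice.

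Of the TGF-β ligands, Tgfb1 was higher and Tgfb2 and Tgfb3 did not pass. Tgfb1 was at 4.39, 6.06, 3.48 and 3.48 CPM in controls and 17.0, 9.73 and 8.03 CPM after LPS. Every LPS mouse was above every control and LPS mouse 1 was the highest, with a log2 fold change of 1.42 (SE 0.30, edgeR adjusted p = 0.00365). Tgfb2 had 30, 26, 3 and 14 counts in controls and 16, 0 and 9 counts after LPS, and these ranges overlapped. Tgfb3 was at 1.52 ± 0.76 CPM in control and 1.44 ± 0.64 CPM in LPS livers. Ctgf, a matricellular gene that TGF-β induces, was at 3.68, 7.45, 0.428 and 7.31 CPM in controls and 5.99, 4.57 and 3.74 CPM after LPS. The LPS values of Ctgf lay inside the wide control range, with a log2 fold change of 0.01 (SE 0.59, edgeR adjusted p = 0.989).

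Of 30 listed receptors, activators and targets of TGF-β, 29 were tested. Of these, 4 were higher and 3 were lower, shares close to the 13.3% and 13.0% of all genes tested. The median log2 fold change of the list was -0.21. Skil, which codes for a repressor of SMAD proteins, rose from 15.8 ± 2.86 to 25.9 ± 3.24 CPM (log2 fold change 0.71, edgeR adjusted p = 0.0104). The Skil call was lost without LPS mouse 2 (0.64, edgeR adjusted p = 0.0571), with 0.00149 to 0.0571 over all alternatives. Furin, the protease that cuts the TGF-β precursor and the most abundant of the list, rose from 70.1 ± 11.2 to 102 ± 9.68 CPM (0.55, edgeR adjusted p = 0.0201). The Furin call was lost without control mouse 2 (0.45, edgeR adjusted p = 0.0559), LPS mouse 2 (0.57, adjusted p = 0.0601) or LPS mouse 3 (0.47, adjusted p = 0.110). Furin also lost its call with total counts (0.42, edgeR adjusted p = 0.104) and with LPS mice 2 and 3 summed (0.53, adjusted p = 0.0766), with 0.00730 to 0.110 over all alternatives. Ltbp4, which holds latent TGF-β in the matrix, fell from 14.0 ± 3.99 to 2.78 ± 0.53 CPM (-2.33, edgeR adjusted p = 4.75e-05). Smad7, an inhibitor that TGF-β itself induces, fell from 9.77 ± 2.88 to 5.03 ± 0.79 CPM (-0.96, edgeR adjusted p = 0.0178). The Smad7 call was lost without control mouse 4 (-0.76, edgeR adjusted p = 0.0572) or LPS mouse 2 (-0.83, adjusted p = 0.0840). Smad7 also lost its call with LPS mice 2 and 3 summed (-0.92, edgeR adjusted p = 0.0558), with 0.00302 to 0.0840 over all alternatives. Tgif1, a corepressor of SMAD proteins, fell from 15.4 ± 2.89 to 10.4 ± 0.81 CPM (-0.57, edgeR adjusted p = 0.0426). The Tgif1 call was lost without control mouse 1 (-0.47, edgeR adjusted p = 0.0943), control mouse 4 (-0.53, adjusted p = 0.0930), LPS mouse 1 (-0.55, adjusted p = 0.101), LPS mouse 2 (-0.63, adjusted p = 0.0834) or LPS mouse 3 (-0.52, adjusted p = 0.148). Tgif1 also lost its call with no filter (-0.56, edgeR adjusted p = 0.0540), with the replicate number as a block (-0.51, adjusted p = 0.112) and with LPS mice 2 and 3 summed (-0.57, adjusted p = 0.108), with 0.0255 to 0.148 over all alternatives.

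Matrix receptors were higher in 6 and lower in 1 of 17 tested genes of 18 listed, beside 13.3% and 13.0% of all genes. The median log2 fold change of the list was 0.23. Itga2, the alpha chain of a collagen receptor of platelets and epithelia, had 3, 1, 2 and 3 counts in controls and 284, 253 and 250 counts after LPS. Its edgeR log2 fold change was 6.72 (edgeR adjusted p = 2.77e-08). Counts of Itga2 summed by group gave a ratio of 110 with a 95% counting interval of 57.6 to 241, which leaves out the spread between mice. Itgb3, an integrin beta chain of platelets and vessels, rose from 2.32 ± 0.65 to 16.0 ± 3.04 CPM (log2 fold change 2.79, edgeR adjusted p = 5.98e-06). Sdc1, the heparan sulfate proteoglycan syndecan 1 of hepatocytes, rose from 104 ± 18.8 to 340 ± 117 CPM (1.70, edgeR adjusted p = 0.000163). Itga8, an integrin alpha chain of stellate cells, fell from 8.74 ± 5.54 to 1.54 ± 0.59 CPM (-2.47, edgeR adjusted p = 0.00193). Sdc4, the most abundant of the list, was at 331 ± 97.9 and 535 ± 33.7 CPM (0.69, edgeR adjusted p = 0.0293). The Sdc4 call was lost without control mouse 2 (0.63, edgeR adjusted p = 0.0813), LPS mouse 2 (0.67, adjusted p = 0.0988) or LPS mouse 3 (0.68, adjusted p = 0.0956). Sdc4 also lost its call with total counts (0.56, edgeR adjusted p = 0.0968) and with LPS mice 2 and 3 summed (0.68, adjusted p = 0.0973), with 0.000806 to 0.0988 over all alternatives.

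Of the 4 PDGF ligands, which act on the receptors of stellate cells, Pdgfd fell from 2.43 ± 0.53 to 0.970 ± 0.20 CPM (log2 fold change -1.31, edgeR adjusted p = 0.0387). The Pdgfd call was lost without control mouse 1 (-1.16, edgeR adjusted p = 0.0849), control mouse 4 (-1.32, adjusted p = 0.0649), LPS mouse 1 (-1.49, adjusted p = 0.0521), LPS mouse 2 (-1.25, adjusted p = 0.116) or LPS mouse 3 (-1.19, adjusted p = 0.128). Pdgfd also lost its call with no filter (-1.30, edgeR adjusted p = 0.0774), with the replicate number as a block (-1.32, adjusted p = 0.0810) and with LPS mice 2 and 3 summed (-1.23, adjusted p = 0.104), with 0.0123 to 0.128 over all alternatives. Pdgfc, the most abundant, was at 10.2 ± 1.71 and 9.27 ± 0.82 CPM and did not pass. Of 6 genes for the HGF receptor and for HGF activation, Hgfac, the HGF activator protease, fell from 128 ± 25.4 to 71.7 ± 9.88 CPM (-0.84, edgeR adjusted p = 0.00395). Hpn, the gene of hepsin and the most abundant of these, was at 220 ± 22.6 and 241 ± 28.1 CPM and did not pass.

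Sinusoidal endothelium, the neighbour of the stellate cell, had 2 markers higher and 3 lower of 11, beside 13.3% and 13.0% of all genes. Lyve1 rose from 5.61 ± 1.42 to 19.1 ± 7.05 CPM (log2 fold change 1.76, edgeR adjusted p = 0.000296). Pecam1 rose from 10.9 ± 1.24 to 26.3 ± 12.7 CPM (1.28, edgeR adjusted p = 0.00269). Clec4g, a lectin of these cells, fell from 25.4 ± 4.19 to 1.16 ± 0.78 CPM (-4.43, edgeR adjusted p = 2.23e-06). Ptprb fell from 32.6 ± 3.07 to 8.49 ± 2.31 CPM (-1.93, edgeR adjusted p = 1.15e-05), and Kdr, a receptor of vascular endothelial growth factor, from 23.5 ± 7.84 to 11.9 ± 3.90 CPM (-0.97, edgeR adjusted p = 0.0209). The Kdr call was lost without control mouse 2 (-0.80, edgeR adjusted p = 0.0693), control mouse 4 (-0.88, adjusted p = 0.0542), LPS mouse 2 (-0.94, adjusted p = 0.0752) or LPS mouse 3 (-0.77, adjusted p = 0.103). Kdr also lost its call with LPS mice 2 and 3 summed (-0.86, edgeR adjusted p = 0.0826), with 1.88e-05 to 0.103 over all alternatives. Fcgr2b, which did not pass, was at 27.5 ± 4.68 and 20.7 ± 4.12 CPM. The endothelial list summed to 216, 277, 175 and 218 CPM in controls and 237, 137 and 135 CPM after LPS, which overlapped. Endothelial cells also express Col4a1, Col4a2 and Col15a1, and their part in those rises was not tested.

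Of 7 cholangiocyte markers, Sox9, a transcription factor of bile duct cells, was higher, from 7.23 ± 3.98 to 20.3 ± 5.28 CPM (log2 fold change 1.49, edgeR adjusted p = 0.00736). The other 6 did not pass, and the median log2 fold change of the list was -0.501. Spp1, the gene of osteopontin and the most abundant, was at 124 ± 75.2 and 128 ± 9.37 CPM. Spp1 passed without control mouse 1 (0.55, edgeR adjusted p = 0.0372), with 0.0372 to 0.988 over all alternatives. The cholangiocyte list summed to 267, 111, 72.7 and 119 CPM in controls and 138, 166 and 161 CPM after LPS, with control mouse 1 the highest, as for Col1a1, Col3a1 and Pdgfrb. Of 10 hepatocyte markers, 3 were higher and 3 were lower, beside 13.3% and 13.0% of all genes. Tat, Pck1 and Hnf4a rose, with log2 fold changes of 1.40, 1.12 and 0.74 (edgeR adjusted p = 0.00166, 0.00401 and 0.00960). Ttr, Alb and Apoa1, which code for plasma proteins, fell, with log2 fold changes of -1.23, -0.93 and -0.70 (edgeR adjusted p = 0.000254, 0.0137 and 0.0231). The Alb call was lost without LPS mouse 2 (-0.93, edgeR adjusted p = 0.0618) or LPS mouse 3 (-0.93, adjusted p = 0.0641). Alb also lost its call with LPS mice 2 and 3 summed (-0.92, edgeR adjusted p = 0.0654), with 1.34e-05 to 0.0654 over all alternatives. The Apoa1 call was lost without LPS mouse 1 (-0.57, edgeR adjusted p = 0.0608), LPS mouse 2 (-0.78, adjusted p = 0.0600) or LPS mouse 3 (-0.77, adjusted p = 0.0657). Apoa1 also lost its call with LPS mice 2 and 3 summed (-0.76, edgeR adjusted p = 0.0660), with 0.000340 to 0.0660 over all alternatives. The Hnf4a call was lost without LPS mouse 2 (0.66, edgeR adjusted p = 0.0581) or LPS mouse 3 (0.69, adjusted p = 0.0506). Hnf4a also lost its call with LPS mice 2 and 3 summed (0.68, edgeR adjusted p = 0.0533), with 0.000273 to 0.0581 over all alternatives. The hepatocyte list summed to 68153, 67483, 88569 and 78551 CPM in controls and 46550, 51431 and 51283 CPM after LPS, and Alb made 61.4% of that sum in controls and 49.7% after LPS.

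Promoter sequences were read for the members that RefSeq's table holds, 30 of 48, on build GRCm38.p6. The 250 bases before each transcript start were searched on both strands for the AP-1 motif TGANTCA, the STAT motif with 3 free central bases and the CArG box, the site named for serum response factor in muscle genes. The 30 members have 34 windows. An AP-1 match was found in 3 of the 34, in Ecm1, Col6a1 and Mmp13, beside 6.75% of all 32851 promoter windows. A STAT match was found in 0 of the 34 windows, beside 7.02% of all windows. A CArG box was found in 1 window, that of Myl9, at 161 bases before the start, beside 1.47% of all windows. A match describes the letters in the window and does not show binding.

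The AP-1 motif of Mmp13 starts 35 bases before the transcript start and that of Ecm1 64 bases before it, although Mmp13 rose and Ecm1 fell. Their windows are shown with the motif in capitals, beside that of Timp1, the member with the largest rise, in which no motif was found. The Mmp13 window is chr9:7272264-7272513 on the plus strand and the Ecm1 window is chr3:95739570-95739819 on the minus strand. The Timp1 window is chrX:20869916-20870165 on the plus strand, within Syn1, a gene on the minus strand, and no annotated exon reaches into any of the 3 windows.
Mmp13: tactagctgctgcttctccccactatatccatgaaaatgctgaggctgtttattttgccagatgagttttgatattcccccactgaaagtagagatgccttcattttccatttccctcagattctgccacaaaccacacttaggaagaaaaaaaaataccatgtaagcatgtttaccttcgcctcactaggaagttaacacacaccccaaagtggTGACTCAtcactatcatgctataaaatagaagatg
Ecm1: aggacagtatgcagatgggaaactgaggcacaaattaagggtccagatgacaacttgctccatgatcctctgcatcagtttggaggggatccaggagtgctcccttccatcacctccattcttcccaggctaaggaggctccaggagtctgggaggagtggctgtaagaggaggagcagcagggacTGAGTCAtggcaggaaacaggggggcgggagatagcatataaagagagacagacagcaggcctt
Timp1: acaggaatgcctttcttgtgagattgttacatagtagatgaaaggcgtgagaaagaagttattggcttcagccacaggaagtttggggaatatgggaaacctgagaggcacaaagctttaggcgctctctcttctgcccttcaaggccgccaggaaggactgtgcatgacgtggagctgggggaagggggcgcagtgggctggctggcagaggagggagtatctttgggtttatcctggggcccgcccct

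Col4a1 and Col4a2 lie head to head on chromosome 8, on opposite strands, with RefSeq starts 21 bases apart, so that the region before each start is transcribed as part of the other gene. Their annotated exons share 22 bases. The strand setting of the authors' counting is not given in the sources used here, so reads of genes that overlap on opposite strands may not be told apart. In GENCODE M21, exons of 18 members overlap exons of a gene on the other strand. The overlap took 62.4% of the exon length of Tagln, with Gm48529, which had 17 to 49 counts per library, so Tagln is uncertain. It took 23.2% of Ctgf and 21.3% of Timp3.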

How the data were processed

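The authors deposited raw read counts per gene for 7 livers, 4 control and 3 LPS, and these counts were used as given. Per the submitters' processing notes, reads were trimmed with cutadapt 1.9.1, aligned to GRCm39 with HISAT2 2.2.1 and counted with HTSeq 0.6.1. The strand setting, the annotation and what was done with multi-mapped reads are not given in the sources used here. In R 4.3.3, edgeR 4.0.16 was run with filterByExpr at its minimum count of 10, TMM factors, and a quasi-likelihood test between the groups without other terms; p was adjusted by Benjamini and Hochberg's method for 13683 genes. Standard errors came from the F statistic. The script was tested on simulated data. Alternatives used DESeq2 1.42.0, other scalings, filters and thresholds, the replicate number as a block, each mouse left out in turn, and LPS mice 2 and 3 summed. Exon lengths are from GENCODE M21 (GRCm38), another build than the counts. The members and lists were chosen with earlier results of these data known. All 48 members are named. Of each list the 3 passing genes with the smallest p in each direction, the gene with the highest CPM over all mice and markers at 0 are named, with 1 passing gene left out.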

Additional observations from a re-analysis of the deposited data

Results flagged for a closer look

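Each of the 48 members was checked for a control mouse that stood far from the other 3, by Dixon's ratio of the gap to the range with its 95% critical value for 4 samples, and 2 members had one. Reln was at 29.09 CPM in control mouse 3, below the other controls at 39.2 to 41.3 CPM. Pdgfrb was at 14.22 CPM in control mouse 1, above the other controls at 6.17 to 6.77 CPM. Chance passes that value in about 1 of 20 groups, so about as many are found by chance among 48 members. Groups of 3 mice were not checked.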

How the results depend on the processing

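Of the 24 members that passed, 18 also had an adjusted p below 0.05 in each of the 15 other fits that tested them, and none of the 24 changed sign. A 2-fold change as well was missed by Adamts1, Vim, Ecm1 and Colec12. Calls at 0.05 were lost in some fits for Lrat, Ecm1, Colec12, Vim, Lum and Loxl2, and gained for Tagln, Col1a1 and Loxl1. Over the 15 other fits 10 to 14 members were higher and 7 to 12 lower. Leaving out each mouse in turn gave 7 to 12 lower members. With the replicate number as a block, 13 were higher and 10 lower, Des changed sign (0.0322) and Ctgf was at 0.76, without a call. Deviations of mice with the same number correlated at 0.205, -0.06 and 0.08, and those of mice with different numbers at -0.151 to 0.107. Whether the numbers pair the mice cannot be told from these few values. Total counts without scaling factors moved the median of all genes to -0.13 and split the calls into 1350 higher and 2057 lower, in place of 1825 and 1773. The strict filter, at least 10 counts in every mouse, left 38 members and removes genes near 0 in a group. The cause of the other changes was not tested.

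By role, lower quiescent stellate cell genes numbered 2 with LPS mice 2 and 3 summed, 2 over 2-fold, 2 at an adjusted p below 0.01, and 1 to 4 leaving out each mouse. Higher contractile genes numbered 0 over 2-fold, 0 at 0.01 and 0 to 1 leaving out each mouse, and lower ones 0 under the strict filter and 1 to 2 leaving out each mouse. Higher cross-linking enzymes numbered 1 at 0.01 and 1 to 2 leaving out each mouse, and lower ones 0 to 1. Under the strict filter 2 proteases and 0 inhibitors were higher.

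Sign changes occurred only in genes without a call. With total counts the log2 fold changes were -0.10 for Pdgfrb, -0.0383 for Col1a2, -0.10 for Ctgf, -0.0033 for Hpn and -0.0405 for Spp1. Pdgfrb was at -0.019 without genes over 1% of counts in the library size, -0.0186 under the strict filter and -0.0328 with LPS mice 2 and 3 summed, where Col5a2 was at 0.0424 and Tgfb3 at 0.10. Leaving out each mouse gave -0.12 to 0.37 for Pdgfrb, -0.32 to 0.0644 for Des, -0.11 to 0.27 for Col1a2, -0.43 to 0.0707 for Col3a1, -0.25 to 0.26 for Col5a1, -0.24 to 0.10 for Col5a2, -0.34 to 0.0429 for Dcn, -0.48 to 0.19 for Tgfb3, -0.37 to 0.31 for Ctgf and -0.17 to 0.55 for Spp1.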

Other observations

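LPS mouse 1 held the highest CPM of the 3 LPS mice in 30 of the 48 members (62.5%) and in 4975 of the 13683 genes tested (36.4%). This count was made after the values were seen. The same mouse had 279 counts of the Kupffer cell gene Timd4, against 1 and 10 in LPS mice 2 and 3. Within each mouse, the count ratio of Col1a1 to Col1a2 was 0.887, 0.633, 0.581 and 0.612 in controls and 0.991, 0.863 and 0.930 after LPS, and control mouse 1 was the only control above the lowest LPS mouse.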
